A study of Mus musculus with 4 samples.

Results

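Neurons keep a store of calcium in the endoplasmic reticulum and release it on demand. Glutamate or acetylcholine bound to a receptor coupled to the G protein Gq activates phospholipase C beta, which cuts a membrane lipid into diacylglycerol and inositol trisphosphate (IP3), and IP3 opens the IP3 receptor in the store. Ryanodine receptors release calcium from the same store when calcium itself rises, and the SERCA pumps refill it. Purkinje cells, the output neurons of the cerebellar cortex, are known for very high levels of this machinery, and mice that lose parts of it are ataxic.

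The 10 genes described here are those of IP3 formation, store release and store refilling: the phospholipases Plcb1, Plcb3 and Plcb4, the channels Itpr1, Ryr1, Ryr2 and Ryr3, the IP3 receptor partner Car8 and the pumps Atp2a2 and Atp2a3. They were taken by exact gene symbol from the annotation of the arrays, which named 1 row each for 9 of them, out of 19938 genes on 21789 tested rows. Itpr1, the main IP3 receptor of brain, has no row under its symbol in that annotation and was not analysed here.

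RNA labelled as prefrontal cortex came from ICR mice injected intraperitoneally each day with ketamine, an NMDA receptor blocker, at 30 mg/kg, or with saline, for 3 months according to the methods, and was read on 4 whole-transcript arrays, 2 per treatment. The labels disagree about treatment: 2 arrays carry saline in the title and ketamine in the source field, and the other 2 the opposite. The titles are used here, so every difference is titled ketamine minus titled saline, and its sign would turn if the source field were right. The methods give male mice aged 1 month at the start, and the labels female mice. Values are log2 expression values computed by the authors with RMA, and 1 unit is a 2-fold difference.

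The labelled tissue was checked first. On the arrays titled ketamine, 9 of 9 measured Purkinje cell markers and 10 of 10 cerebellar granule cell markers were higher, whereas 7 of 8 cortical and 8 of 8 striatal projection neuron markers were lower, none of these lists having a call in the other direction. The values of each list were also summed on the linear scale within each array, so that bright genes weigh most. The log2 of the summed level of the Purkinje list was 9.98 to 10.15 on the arrays titled saline and 12.21 to 12.28 on those titled ketamine. For the granule cell list it was 9.13 to 9.73 and 13.56 to 13.65, and for the cortical list 11.55 to 11.59 and 10.50 on both arrays titled ketamine. Tbr1 and Neurod6, which define cortical projection neurons, read 3.69 to 4.01 on the arrays titled ketamine, under the 95th percentile of 1035 olfactory receptor rows (4.46 and 4.56), a level at which a row cannot be told from background. Both genes were read clearly on the arrays titled saline (7.47 to 8.44). Treatment and brain region cannot be told apart in any value below. In bulk tissue, fewer cells of a type and less RNA per cell cannot be told apart either.

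**Figure D1:**
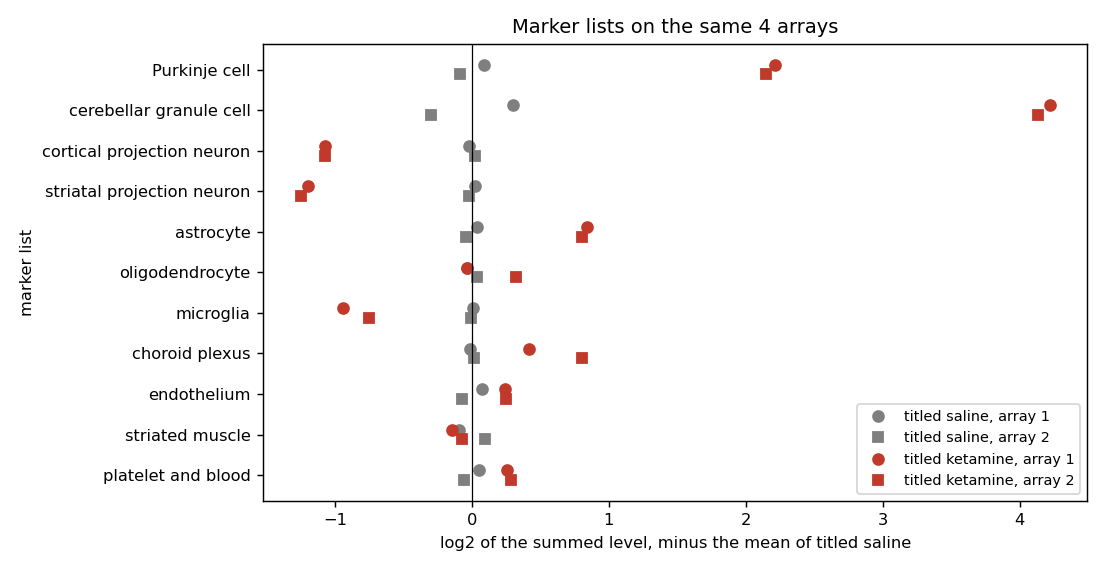
Log2 of the summed level of each marker list (y axis) on each array, given relative to the mean of the arrays titled saline (x axis, log2 units). Circles are array 1 and squares array 2 of a group, grey for titled saline and red for titled ketamine; the granule cell and Purkinje cell lists lie far to the right on both arrays titled ketamine, and the cortical, striatal and microglial lists to the left.

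Among the 9 measured genes, Plcb3, Plcb4, Ryr1, Car8 and Atp2a3 were called higher (5 genes) and Plcb1 and Ryr3 lower (2 genes) under titled ketamine, and Ryr2 and Atp2a2 were not called. The call is an adjusted p under 0.05 in limma, a linear model that borrows the spread from all genes. Over all tested rows limma called 33.2%, with 23.4% higher and 9.71% lower, so calls were frequent on these arrays. The same 7 genes lay past 1.3-fold, a threshold taken from the study, as did 34.1% of all rows (24.3% higher and 9.87% lower). Past 2-fold were 3 higher genes (Car8, Atp2a3 and Plcb4) and 1 lower (Plcb1), against 6.67% of all rows (3.69% higher and 2.98% lower). The 2 groups did not overlap for 8 of the 9 genes, 6 higher and 2 lower, which is also true of 69.9% of all rows (48.4% higher and 21.5% lower). The median difference of the 9 genes was 0.66 on the log2 scale and that of all tested rows 0.13, and with the arrays centred on their medians the 9 genes had a median of 0.53. None of the 9 genes fell under the background level on any array.
With 2 arrays against 2, an exact permutation test cannot give a two-sided p below 0.333. The limma p-values rest on the spread between 2 samples per group together with the spread borrowed from all genes. According to the methods, 2 samples of each 3-month group were picked at random. The labels do not name separate animals, so this spread may be technical. With either array titled ketamine left out, limma called 0 of all 21789 rows and therefore 0 of these genes, although 7 (without array 1) and 6 (without array 2) of the 9 had an unadjusted p under 0.05.

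**Figure D2:**
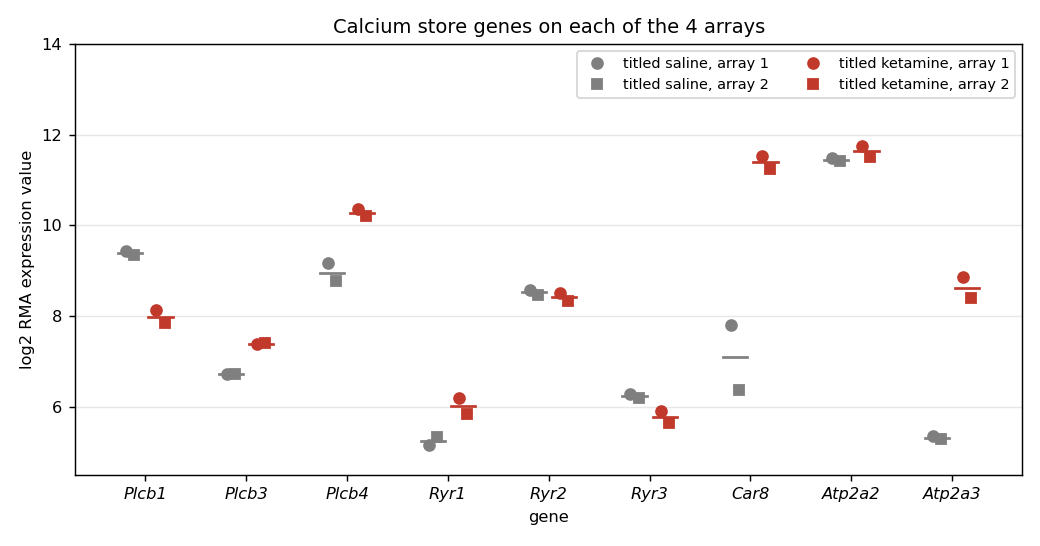
Log2 expression value (y axis) of the 9 measured calcium store genes (x axis) on each array, circles for array 1 and squares for array 2 of a group; bars are group means (n = 2). Plcb4, Car8 and Atp2a3 sit well above, and Plcb1 well below, their titled saline values on both arrays titled ketamine, while the values of Ryr2 overlap.

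The phospholipases of the beta class, which make IP3, went in opposite directions. Plcb1, the isoform best known from cerebral cortex, hippocampus and striatum, read 9.43 and 9.34 on the arrays titled saline and 8.13 and 7.84 on those titled ketamine. Both arrays titled ketamine were lower than either titled saline, with group means of 9.39 ± 0.0614 and 7.98 ± 0.204 (SD, n = 2 each). This made a log2 difference of -1.41 (standard error 0.130, adjusted p = 3.7e-04 from limma), 2.65-fold lower. Plcb4, an isoform of Purkinje cells and thalamus, read 9.16 and 8.77 on the arrays titled saline and 10.36 and 10.20 on those titled ketamine. Its groups were also apart, with means of 8.96 ± 0.276 and 10.28 ± 0.114 (SD, n = 2 each) and a log2 difference of 1.32 (standard error 0.152, adjusted p = 9.5e-04 from limma). Plcb3, an isoform of the Purkinje cells that have little Plcb4, read 6.73 on both arrays titled saline and 7.38 and 7.41 on those titled ketamine. It was higher by 0.66 (standard error 0.103, adjusted p = 0.00336 from limma), a smaller difference than that of Plcb4.

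Plcb1 and Plcb4 are neighbours: the RefSeq gene table of GRCm38.p6 places 0 protein-coding genes between them on chromosome 2. Their promoters are shown because the pair lies side by side and differed in opposite directions. Each run covers 250 bases before to 50 after a RefSeq start site of GRCm38.p6, and capitals mark CG dinucleotides.
Plcb1, chr2:134785914-134786213, plus strand: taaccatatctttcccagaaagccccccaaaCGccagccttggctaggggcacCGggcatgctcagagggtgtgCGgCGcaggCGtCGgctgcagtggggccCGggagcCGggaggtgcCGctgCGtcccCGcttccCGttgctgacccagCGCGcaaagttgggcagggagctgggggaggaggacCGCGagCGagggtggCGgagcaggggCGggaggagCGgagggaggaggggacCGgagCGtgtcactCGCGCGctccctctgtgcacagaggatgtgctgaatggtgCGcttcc
Plcb4, first start, chr2:135659297-135659596, plus strand: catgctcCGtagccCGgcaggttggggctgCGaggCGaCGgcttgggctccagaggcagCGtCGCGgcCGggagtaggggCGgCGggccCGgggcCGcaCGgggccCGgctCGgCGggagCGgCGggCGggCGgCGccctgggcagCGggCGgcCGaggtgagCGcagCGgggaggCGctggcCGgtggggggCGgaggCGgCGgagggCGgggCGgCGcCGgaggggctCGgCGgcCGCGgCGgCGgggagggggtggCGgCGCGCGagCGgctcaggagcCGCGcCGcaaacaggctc
Plcb4, second start, chr2:135764588-135764887, plus strand: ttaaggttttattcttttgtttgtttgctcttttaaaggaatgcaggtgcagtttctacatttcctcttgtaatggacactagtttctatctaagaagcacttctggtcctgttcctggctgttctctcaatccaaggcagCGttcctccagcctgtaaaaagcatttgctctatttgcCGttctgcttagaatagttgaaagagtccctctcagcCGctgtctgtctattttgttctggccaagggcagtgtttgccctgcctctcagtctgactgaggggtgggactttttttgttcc
The Plcb1 promoter holds 26 CG dinucleotides and the first Plcb4 promoter 50, more than 83.1% and 99.1% of the 32851 promoters in the table. The second Plcb4 promoter holds 3, more than 23.3% of them. A row of this array combines probes along the transcript, so the values do not say from which start the Plcb4 RNA came.

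The ryanodine receptors, the calcium-gated release channels, did not move as a group. Ryr1, the skeletal muscle isoform that Purkinje cells also express, read 5.16 and 5.33 on the arrays titled saline and 6.19 and 5.83 on those titled ketamine. The groups did not overlap, and Ryr1 was higher by 0.77 (standard error 0.146, adjusted p = 0.00761 from limma). Without titled saline array 1 the difference was 0.68 and the call was lost (adjusted p = 0.0702 from limma). Of 8 striated muscle markers, 0 were called higher and 1, the actin gene Acta1, lower by a log2 difference of -0.59. The groups were apart for 3 higher and 3 lower markers of this list, against 48.4% and 21.5% of all rows. Mylpf, at 0.38, was called higher with the replicate number as a block (adjusted p = 0.0289 from limma), where the list had 1 higher and 2 lower calls. The log2 of the summed level of the list was 8.04 to 8.23 on the arrays titled saline and 7.99 to 8.06 on those titled ketamine.
Ryr3, an isoform of hippocampus and striatum among other regions, read 6.28 and 6.19 on the arrays titled saline and 5.91 and 5.65 on those titled ketamine. Both arrays titled ketamine were below both titled saline, by a log2 difference of -0.46 (standard error 0.126, adjusted p = 0.0301 from limma). With any 1 array left out this difference stayed between -0.58 and -0.33 and its call was lost. Ryr2, the cardiac isoform and the most abundant in brain, read 8.58 and 8.47 on the arrays titled saline and 8.51 and 8.33 on those titled ketamine. Its groups overlapped, and the log2 difference of -0.10 (standard error 0.117, adjusted p = 0.536 from limma) was smaller than the gap of 0.18 between the 2 arrays titled ketamine.

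Car8 differed most among the 9 genes. It encodes a protein of the carbonic anhydrase family without enzyme activity, which binds the IP3 receptor and lowers its affinity for IP3, and its loss makes mice ataxic. It read 7.81 and 6.37 on the arrays titled saline and 11.53 and 11.25 on those titled ketamine. The means were 7.09 ± 1.02 and 11.39 ± 0.199 (SD, n = 2 each), which gave a log2 difference of 4.30 (standard error 0.403, adjusted p = 3.9e-04 from limma), 19.7-fold. Only 5 of the 21789 rows had a more positive difference. The arrays titled saline differed from each other by 1.44, so the difference was 5.02 without titled saline array 1 and 3.58 without array 2. When limma was run with a trend and robust moderation, which lets rows of unusual spread keep more of it, Car8 was no longer called (adjusted p = 0.0536). Ppp1r17, a Purkinje cell marker, was also higher on titled saline array 1 than on array 2, at 4.94 against 3.92, the latter at background. Cbln3, a granule cell marker, was so too, at 5.75 against 4.52. Lhx1 (4.65 against 4.92) and Skor2 (3.60 against 4.13, both at background), of the Purkinje cell list, went the other way. So did Barhl1 of the granule cell list (5.02 against 5.37). The remaining measured markers of both lists were higher on array 1, some by little, such as Pcp2 at 5.06 against 4.90. Among them Ebf2, of the Purkinje cell list, was at background on both arrays titled saline (4.07 against 3.96). The part of cerebellar RNA in the Car8 values was not tested.

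The pumps that refill the store also parted. Atp2a2, the SERCA pump of nearly all cells, read 11.49 and 11.42 on the arrays titled saline and 11.75 and 11.51 on those titled ketamine. The highest titled saline and the lowest titled ketamine value were 0.02 apart, and the log2 difference of 0.18 (standard error 0.123, adjusted p = 0.305 from limma) was not called. Atp2a3, a SERCA pump known from Purkinje cells, platelets and endothelium, read 5.36 and 5.29 on the arrays titled saline and 8.87 and 8.40 on those titled ketamine. Every titled ketamine value was more than 3 log2 units above every titled saline value, with means of 5.32 ± 0.0494 and 8.63 ± 0.333 (SD, n = 2 each). This made a log2 difference of 3.31 (standard error 0.163, adjusted p = 3.7e-05 from limma), 9.91-fold, and 24 rows had a more positive one.
Of the other cell types known for Atp2a3, the endothelial markers had 0 calls among 6. Of these 6, 4 were apart and higher, as were 48.4% of all rows. The log2 of the summed endothelial level was 9.22 to 9.36 on the arrays titled saline and 9.53 to 9.54 on those titled ketamine. Cldn5, at 0.35, was called with the filter on dim rows, with trend and robust moderation and with the replicate number as a block (adjusted p = 0.0357, 0.0268 and 0.0428 from limma), and Tek, at 0.39, with the block and without titled saline array 1 (adjusted p = 0.0307 and 0.0383 from limma). Of 5 platelet and blood markers, 2 were higher, Ppbp by 0.60 and Alas2 by 0.57 on the log2 scale, and neither was called after quantile normalization (adjusted p = 0.281 and 0.121 from limma). Ppbp was at background on 3 of the 4 arrays. The platelet markers Itga2b and Gp9 had log2 differences of 0.02 and 0.17 and were not called. Pf4, also a platelet marker, went the other way, at -0.33 with the groups apart (adjusted p = 0.0545 from limma) and both arrays titled ketamine at background, and the list had 1 lower call after quantile normalization and after median centring. The Atp2a3 promoter is shown because Atp2a3 differed most after Car8, and it holds 25 CG dinucleotides, in capitals.
Atp2a3, chr11:72960919-72961218, plus strand: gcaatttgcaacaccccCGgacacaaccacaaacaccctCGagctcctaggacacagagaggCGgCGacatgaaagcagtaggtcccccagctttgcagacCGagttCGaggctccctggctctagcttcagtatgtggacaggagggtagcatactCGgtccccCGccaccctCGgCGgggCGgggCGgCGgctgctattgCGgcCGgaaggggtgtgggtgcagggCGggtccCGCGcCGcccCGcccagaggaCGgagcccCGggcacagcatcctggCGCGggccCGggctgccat

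**Figure D3:**
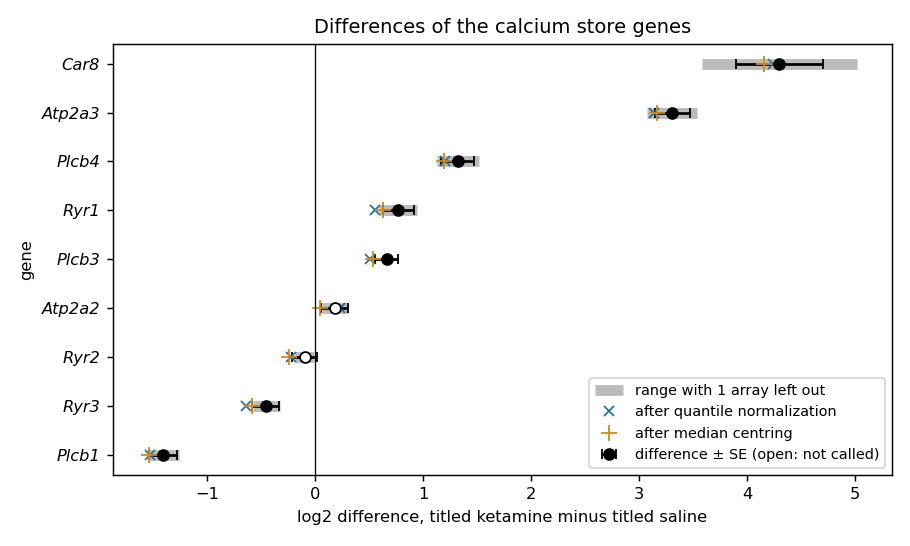
Log2 difference, titled ketamine minus titled saline (x axis), of each measured calcium store gene (y axis), with its standard error; filled points were called by limma. Grey bands span the values with 1 array left out, and crosses and plus signs give the values after quantile normalization and median centring; no band crosses 0, that of Ryr2 ends at -0.01, and Car8 has the widest.

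Promoters of 6 of the 9 genes are in the RefSeq table, Plcb4 with 2. They were searched on both strands for AGGTCA, the core of the sites bound by ROR receptors, of which Rora is a factor of Purkinje cells. It was found in 2 of the 7 promoters, and in 16.3% of all 32851. The matches, in capitals, were in Ryr2, 117 bases before the start on the plus sense of the promoter, and in Plcb3, 246 bases before it in the reverse sense. The sequences are shown with up to 12 bases on each side.
Ryr2: tccttggacttgAGGTCAggaagggcacag
Plcb3: cggcTGACCTtggcatgtcttg
Among Plcb4, Ryr1 and Atp2a3, which were higher, and Plcb1, which was lower, these letters were not in the windows searched. Car8, Ryr3 and Atp2a2 have no promoter in the RefSeq table and were not searched.

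A ratio of 2 genes on the same array is not moved by adding a constant to that array, as median centring does, though quantile normalization can move it. Related genes were therefore also set against each other array by array, in 7 pairs. The log2 ratio of Plcb4 to Plcb1 was -0.28 and -0.58 on the arrays titled saline and 2.24 and 2.37 on those titled ketamine, a shift of 2.73 (2.58 to 2.88 with 1 array left out). That of Plcb3 to Plcb1 shifted by 2.07 and that of Plcb4 to Plcb3 by 0.66, so the 3 isoforms all parted from each other. The ratio of Atp2a3 to Atp2a2 was -6.13 on both arrays titled saline and -2.89 and -3.11 on those titled ketamine, a shift of 3.13 (2.91 after quantile normalization). Among ryanodine receptors, Ryr1 shifted by 1.22 against Ryr3 and by 0.87 against Ryr2, and Ryr3 by -0.35 against Ryr2 (-0.41 after quantile normalization). The quantile values of these 2 ratios differ from the deposited ones by more than the larger SD of the 2 groups. All 7 ratios were apart between the groups, each with an exact two-sided permutation p of 0.333, the smallest that 2 against 2 arrays can give and 0.333 again after adjustment over the 7 pairs.

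**Figure D4:**
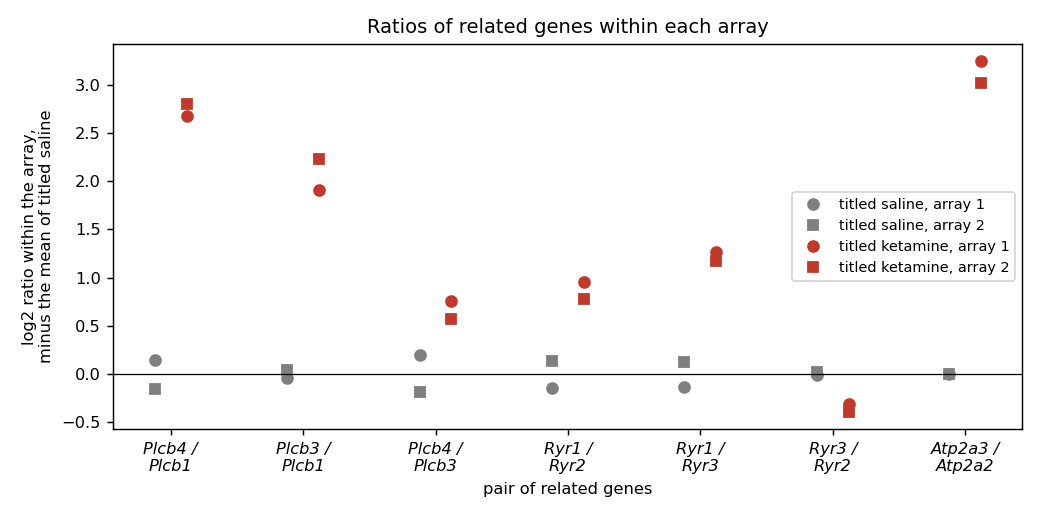
Log2 ratio of 2 related genes within each array (y axis), given relative to the mean of the arrays titled saline, for 7 pairs (x axis). Circles are array 1 and squares array 2; the pairs with Plcb1 or Atp2a2 as the denominator shift by 2.07 to 3.13, and Ryr3 against Ryr2 is the one pair that shifts down.

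The rest of the pathway was read from 8 lists with 64 measured genes of 68. Of these, 20 were higher, 17 lower and 27 not called, with a median log2 difference of 0.05, against 0.13 for all tested rows. The balance turned with the scaling: 16 were higher and 24 lower after quantile normalization, and 15 and 21 after median centring. Over all tested rows limma called 23.4% higher and 9.71% lower, and some of the list counts below lie near these shares. Among the receptors coupled to Gq, 6 of 8 measured were lower and 0 higher, with a list median of -1.53. Chrm3, a muscarinic receptor, read 8.27 and 8.26 on the arrays titled saline and 5.07 and 5.56 on those titled ketamine, with a log2 difference of -2.95. Grm5, the metabotropic glutamate receptor of forebrain neurons, fell by 2.64 and Htr2a, a serotonin receptor of cortex, by 2.28 on the log2 scale. Of the 4 Gq family alpha subunits, Gna11 had a log2 difference of -0.38 and Gna15 of -0.34, the latter at background on both arrays titled ketamine and not called with trend and robust moderation (adjusted p = 0.0829 from limma), while Gnaq, at -0.09 (adjusted p = 0.599 from limma), and Gna14 were not called.
Of 9 other phospholipases C, 4 were higher and 0 lower, with a median of 0.22. Plce1, which Ras proteins activate, was higher by 1.41, Plch1 of the eta class by 0.97 and Plcd4 of the delta class by 0.80 on the log2 scale. Of 6 enzymes that remove IP3 and its products, 4 were higher and 1 lower, with a median of 0.67. Inpp5a, a phosphatase that ends the IP3 signal and is abundant in Purkinje cells, read 8.27 and 8.03 on the arrays titled saline and 10.37 and 10.19 on those titled ketamine. It was higher by 2.13 (standard error 0.129, adjusted p = 6.8e-05 from limma), and Itpkb, an IP3 kinase, by 0.92 and Inpp1, a phosphatase further down, by 0.87. The lower gene was Itpka, an IP3 kinase of dendritic spines, at -0.70.

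Among 14 other release channels and partner proteins, 5 were higher and 3 lower, and the median was 0.06. Homer proteins tie metabotropic glutamate receptors to the IP3 receptor, and their 3 genes split. Homer3, the Purkinje cell form, read 6.31 and 5.84 on the arrays titled saline and 9.11 and 8.83 on those titled ketamine, with a log2 difference of 2.90. Homer1 had a log2 difference of -1.55 and Homer2 of -1.64, the latter with a second row at -1.03. Of the IP3 receptors that were measured, Itpr3 was higher by 0.88 (adjusted p = 0.00143 from limma) and Itpr2 differed by 0.28 (adjusted p = 0.0949 from limma). Of 12 genes of the store lumen and of pump regulation, 4 were higher and 1 lower, with a median of 0.11. Casq1, counted as higher, was at background on all 4 arrays. With the filter on dim rows the list had 2 higher and 0 lower calls. Casq2, a calcium-binding protein of the store in heart that Purkinje cells also hold, read 5.01 and 5.10 on the arrays titled saline and 7.58 and 7.39 on those titled ketamine, with a log2 difference of 2.43. Asph, whose transcripts include the store protein junctin, was higher by 1.63, and Pln, which encodes the SERCA inhibitor phospholamban, was lower by a log2 difference of -0.75, with titled ketamine array 1 at background. Atp2a1, the SERCA pump of skeletal muscle, differed by 0.05 (adjusted p = 0.779 from limma).
Store-operated entry, the inflow that follows an empty store, had 1 higher and 1 lower call among 5 genes and a median of 0.07. The channel gene Orai3 was higher by 0.44 and the sensor gene Stim2 had a log2 difference of -0.39; Orai3 was not called after quantile normalization or median centring (0.28 and 0.31, adjusted p = 0.0950 and 0.0792 from limma). The channel gene Orai1 was not called, and its difference of 0.17 became -0.02 after quantile normalization. Of 6 measured genes of calcium extrusion, 2 were higher and 3 lower, with a median of -0.27. The plasma membrane pump Atp2b1 had a log2 difference of -1.02 and the exchanger Slc8a2 of -0.82, while the pump Atp2b3 was higher by 0.68.

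**Figure D5:**
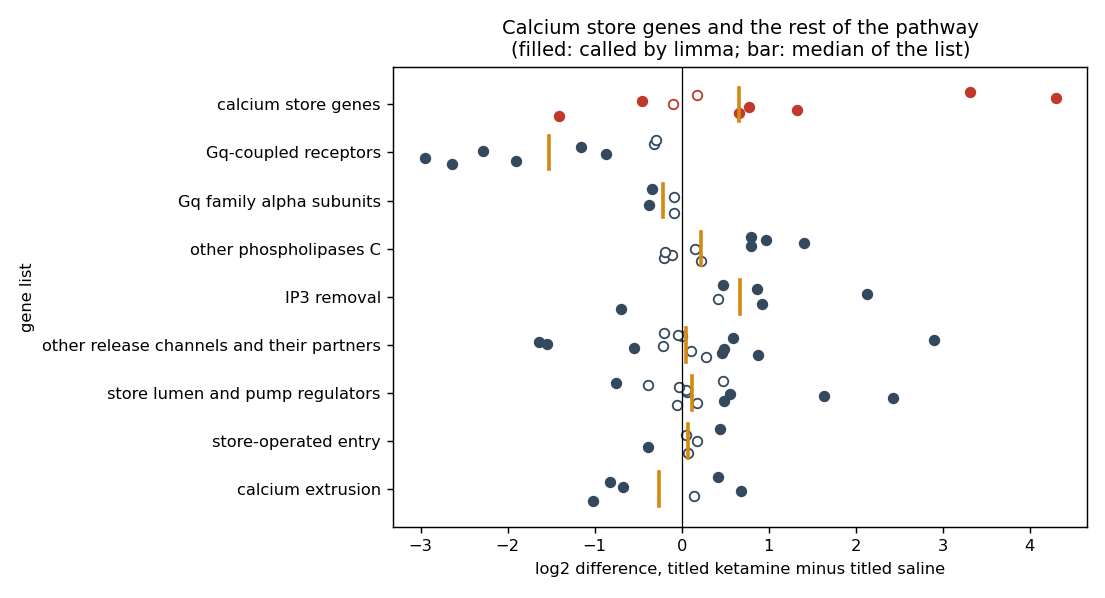
Log2 difference, titled ketamine minus titled saline (x axis), of the 9 calcium store genes (red) and of the measured genes of 8 pathway lists (dark blue) by list (y axis); filled points were called by limma and bars are list medians. The receptors lie at or below -0.30, and the largest positive differences belong to Car8 at 4.30 and Atp2a3 at 3.31.

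The other marker lists were read on the same arrays, where limma called 23.4% of all tested rows higher and 9.71% lower. Of 6 astrocyte markers 3 were higher (S100b by 1.40 and Aqp4 by 1.26), of 6 choroid plexus markers 5 were higher (Slc4a5 by 1.23 and Otx2 by 1.08), and of 6 microglial markers 6 were lower (C1qb 2.03-fold and Cx3cr1 1.99-fold). Of 5 oligodendrocyte markers 0 were called, the largest difference without overlap being 0.28 for Cnp, which was called with trend and robust moderation (adjusted p = 0.0370 from limma). The other extremes of the lists used for the tissue check were Ppp1r17 at 5.56 and Pcp2 at 3.77 for Purkinje cells, Gabra6 at 6.62 and Cbln3 at 6.01 for granule cells, Tbr1 at -4.69 and Neurod6 at -3.58 for cortex, and Tac1 at -3.49 and Rgs9 at -2.72 for striatum. Array 2 of titled saline was at background for Ppp1r17 and Gabra6, and both arrays titled ketamine for Tbr1 and Neurod6, so the sizes of these 4 differences are not resolved. Gabra6 read 6.73 and 3.28 on the arrays titled saline, and its difference was 8.35 without the first and 4.90 without the second. The values of Tac1 under titled ketamine were 4.88 on array 1 and 6.69 on array 2, and its difference was -2.58 without the first and -4.39 without the second. With trend and robust moderation neither gene was called (adjusted p = 0.106 for Gabra6 and 0.108 for Tac1 from limma), and Tac1 was not called without titled saline array 1 (adjusted p = 0.0522 from limma). The part of these cell types in the differences of the calcium store genes was not tested.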

How the data were processed

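RNA of 4 mouse brain samples, 2 per group by sample title, was measured on Affymetrix Mouse Gene 1.0 ST arrays. The log2 values deposited by the authors are RMA values from Affymetrix Expression Console, restricted to core exons per the labels: background correction, normalization between arrays and 1 value per transcript cluster, which compresses low values and removes part of any shift of most genes. Neither a software version nor a build is given in the sources used here. Of 35556 rows, 21789 carry exactly 1 symbol in the platform annotation and were tested, 1621 carry several and 12146 none. All 9 measured members matched the RefSeq table (GRCm38.p6) by gene number and symbol, and coordinates are printed for promoters only. No column of sample values was left unused.
The log2 values were fitted as deposited with limma (version 3.58.1, R version 4.3.3; lmFit, eBayes, Benjamini-Hochberg over the 21789 rows). A gene with several rows was represented by the row with the highest mean. The test was checked on simulated data. The number of arrays limits the precision, and background was taken as the 95th percentile of olfactory receptor rows. Named were all members and the genes of their pairs, and, among genes whose groups did not overlap, up to 3 per pathway list and 2 per marker list with the largest difference; the remaining genes were picked with their values known. The members and lists were chosen with earlier results of these data known. The planned pair with Itpr1 and the comparison of protein sequences were not run, and some listed genes are not reported here. Alternatives were quantile normalization, median centring, a filter on dim rows, trend and robust moderation, rows with any symbol, the mean of a gene's rows, the replicate number as a block, 2-fold, and each array left out.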

Additional observations from a re-analysis of the deposited data

How the results depend on the processing

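All 9 calcium store genes kept their direction under every alternative in which they were tested (Ryr1 lies under the filter on dim rows), and apart from the settings that leave out an array 1 call changed, that of Car8 with trend and robust moderation. With 1 array left out, 0 to 5 of these genes were called higher and 0 to 1 lower, against 5 and 2, and 1 to 2 were past 1.3-fold lower. At 2-fold, 3 were higher and 1 lower. Their median difference was 0.51 after quantile normalization, 0.53 after median centring and 0.42 with the filter on dim rows, against 0.66. With 1 array left out, 0 to 15 pathway genes were called higher and 0 to 14 lower (20 and 17 with all arrays), 0 to 27 marker genes higher and 0 to 20 lower (29 and 22), and 0 to 4574 of all rows (7224), where a group of 1 array is assumed to vary like the other group. Rows past 1.3-fold numbered 5286 higher and 2151 lower, 2809 and 3993 after quantile normalization, and 3319 and 3258 after median centring, the median of all rows moving from 0.13 to -0.05 and 0.00. Orai1 turned to -0.02 after quantile normalization. The cause of these changes was not tested, beyond the shift of the median that the scaling itself makes.
The samples share only a replicate number: with it as a block, 8250 rows were called, and 5 and 2 calcium store genes as before. Deviations of same-numbered arrays from their group means correlated at 0.0340 over the 21789 rows. The block changed no call among these 9 genes.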

Other observations

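Car8 had the third-widest gap between the 2 arrays titled saline among all 21789 rows, after 2 others: Gabra6, a GABA receptor subunit of granule cells, by 3.45, and Arhgef33, which encodes a guanine nucleotide exchange factor, by 1.68, against 1.44 for Car8 on the log2 scale. All 3 were higher on titled saline array 1, and all 3 were among the genes higher on the arrays titled ketamine, Arhgef33 by 5.57. Among the 10 rows with the largest such gap, 7 were higher on titled saline array 1, and 4 of these 7 (the fourth is Cbln3) were also past 2-fold higher on the arrays titled ketamine, as were 3.69% of all rows. Atp2a3, the other strongly higher gene, differed by 0.07 between the same 2 arrays. These genes were looked up after the gap of Car8 had been seen, and the reason for the gap was not tested.

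Members also lie beside other genes of the pathway. On chromosome 13, 0 protein-coding genes stand between Ryr2 and Chrm3 in the RefSeq table, and their log2 differences were -0.10 and -2.95. On chromosome 2, 1 stands between Ryr3 and Chrm5 (Aven), and these had differences of -0.46 and -0.87, Chrm5 reading at background on both arrays titled ketamine. On chromosome 4, 3 stand between Car8 and Asph (Rab2a, Chd7 and Clvs1), and both were higher, by 4.30 and 1.63. With Plcb1 and Plcb4, this makes 4 such pairs, all picked after the values had been seen: 1 with opposite calls, 2 with calls in the same direction and 1 with a single call.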
